A study of Mus musculus with 16 samples.

Results

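The receptors for interleukin (IL)-2, IL-7 and IL-15 were followed through 5 genes, Il2ra, Il2rb, Il2rg, Il7r and Il15ra, of 26089 genes with curated RefSeq transcripts. For each gene, every peak overlapping the gene body or the 50 kb on either side was taken from 12 chromatin immunoprecipitation (ChIP-seq) peak lists. Peaks were told apart as lying within 1 kb of a transcription start site (TSS), in an intron or between genes. The 5 windows covered 533 kb in 4 regions, because Il2ra and Il15ra are neighbours whose windows share 87.9 kb. They held 198 peaks, 104 in Veh and 94 in GSK.

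The cells were CD8+ T cells from spleens of the OT1 strain, in which a transgene gives the T cells 1 receptor against ovalbumin. They were activated for 48 h with IL-2 and antibodies to CD3 and CD28 and then expanded with IL-2 for 3 days, so all groups were exposed to a ligand of the receptors described here. The Veh group received vehicle, and the GSK group received 0.5 μM GSK2879552, which irreversibly inhibits LSD1, a histone demethylase, throughout activation and expansion. Antibodies to RNA polymerase II (Pol II), LSD1, H3K27ac and the 3 states of H3K4 methylation were used, with 1 library and 1 peak list per antibody and treatment, while the 4 inputs were left out here. Although the study repeated its ChIP-seq experiments, 1 list per antibody and treatment was used here, so no spread, test or p-value for a difference between GSK and Veh is given. A peak listed in 1 treatment only is a description of these libraries.

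IL-2 is bound by the alpha chain CD25 (Il2ra), and the signal is carried by the beta chain CD122 (Il2rb) and the common gamma chain CD132 (Il2rg). IL-15 uses the same beta and gamma chains, with its own alpha chain (Il15ra), which often presents IL-15 to a neighbouring cell. IL-7 uses CD127 (Il7r) with the common gamma chain, and all these receptors signal through JAK1, JAK3 and STAT5. In CD8+ T cells CD25 is induced by activation and by IL-2 itself, whereas CD127 is lowered on activation and marks cells that can become memory cells. LSD1 takes methyl groups off mono- and dimethylated H3K4. H3K4me3 and Pol II mark promoters, H3K4me1 marks enhancers, and H3K27ac marks active elements of both kinds.

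Peak strength is given as the fold enrichment over background and as −log10 p, both computed by the authors' peak caller. The fold percentile is the share of peaks in the same list with an equal or lower fold, and the rank is the place of a peak in its list by −log10 p. Lists ranged from 2751 peaks (H3K27ac in GSK) to 40272 (H3K4me1 in GSK), and the files themselves hold no read numbers. The read numbers that the study states per library were not used here. The study states that the GSK H3K27ac library held far fewer read pairs than its Veh counterpart, and its list was the shorter one. It states fewer read pairs in GSK also for LSD1 and H3K4me2, and more for H3K4me1, H3K4me3 and Pol II. To compare signals, the study also brought libraries to equal read numbers by random picking. It does not state whether the listed peaks were called on those reads. The part of read numbers in the listing of peaks was not tested. The Veh H3K27ac list held 7410 peaks. The CD8 T cell markers were Cd8a, Cd8b1, Cd3e, Cd3d, Cd3g and Cd28, of which the Cd3 genes and Cd28 are shared with CD4 T cells. H3K4me3 promoter peaks were found at 6 of 6 of these genes in both treatments. They were at 0 of 1 for CD4 T cells, 0 of 3 for B cells and 0 of 2 for NK cells, and at 1 of 4 for myeloid cells (Cd14). Over all genes, H3K4me3 was at 50.2% of promoters in Veh and 51.3% in GSK. Pol II was at 3 of the 6 CD8 T cell markers in Veh and 5 in GSK (all genes, 29.4% and 25%). H3K27ac was at 2 in Veh and 0 in GSK (all genes, 20.6% and 8.61%). Neither was at Cd8a in either treatment, or at a marker of the other cell types. A peak in a bulk population does not tell a strong mark in few cells from a weak mark in many.

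The promoters and LSD1 sites to which the results refer most are shown first, 5′ to 3′, in mm10 (GRCm38.p6). Promoters are RefSeq entries, from 250 bases before to 50 after a TSS, on the gene's strand. Il2rb had no entry. Capitals mark matches, on either strand, to STAT (TTCNNNGAA), RUNX (TGTGGT), AP-1 (TGANTCA) or ETS (CCGGAA). The first promoter, at chr2:11642542-11642841, is that of Il2ra, which held weak LSD1 and strong Pol II. The next is that of Il7r, at chr15:9529827-9530126 on the minus strand, where H3K4me3 was the only promoter peak. The Il2rg promoter, at chrX:101268206-101268505 on the minus strand, lacked LSD1. The last promoter, at chr2:11705462-11705761, is that of the second Il15ra TSS, which spans the Veh LSD1 summit.
Il2ra promoter: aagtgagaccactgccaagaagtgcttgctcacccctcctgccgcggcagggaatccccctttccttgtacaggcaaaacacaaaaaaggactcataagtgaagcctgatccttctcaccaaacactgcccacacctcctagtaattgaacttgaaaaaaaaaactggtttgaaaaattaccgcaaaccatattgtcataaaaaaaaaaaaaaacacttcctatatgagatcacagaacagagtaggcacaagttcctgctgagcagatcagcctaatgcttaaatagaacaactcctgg
Il7r promoter: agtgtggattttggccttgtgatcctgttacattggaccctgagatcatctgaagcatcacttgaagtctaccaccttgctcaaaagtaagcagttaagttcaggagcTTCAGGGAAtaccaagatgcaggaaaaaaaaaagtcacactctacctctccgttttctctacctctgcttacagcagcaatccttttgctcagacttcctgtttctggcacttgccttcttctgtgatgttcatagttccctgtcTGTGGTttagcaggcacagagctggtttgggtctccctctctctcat
Il2rg promoter: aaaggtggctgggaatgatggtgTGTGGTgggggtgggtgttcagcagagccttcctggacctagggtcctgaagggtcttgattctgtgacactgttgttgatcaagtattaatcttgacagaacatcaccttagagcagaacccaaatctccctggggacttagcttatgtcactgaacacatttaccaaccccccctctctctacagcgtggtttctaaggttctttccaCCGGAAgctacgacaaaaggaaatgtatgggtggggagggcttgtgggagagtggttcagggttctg
Il15ra promoter, second TSS: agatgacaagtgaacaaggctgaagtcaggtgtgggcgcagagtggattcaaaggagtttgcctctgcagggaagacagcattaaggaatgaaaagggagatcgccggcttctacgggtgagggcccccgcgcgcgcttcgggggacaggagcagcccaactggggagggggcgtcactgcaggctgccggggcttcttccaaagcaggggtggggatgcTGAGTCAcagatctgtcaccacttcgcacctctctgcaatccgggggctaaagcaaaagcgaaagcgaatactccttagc

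The 3 strongest LSD1 sites away from TSSs at Il2ra follow as 201 bases around the Veh summit on the plus strand. They lie between genes at −25.7 kb from the TSS (chr2:11616981-11617181) and −19.5 kb (chr2:11623205-11623405), where both treatments had a peak, and in an Il2ra intron at +10.8 kb (chr2:11653509-11653709), where Veh alone had one.
Il2ra −25.7 kb: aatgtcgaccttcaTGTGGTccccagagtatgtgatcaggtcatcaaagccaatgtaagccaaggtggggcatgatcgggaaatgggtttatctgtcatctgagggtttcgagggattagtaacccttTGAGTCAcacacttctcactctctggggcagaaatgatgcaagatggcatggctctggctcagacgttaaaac
Il2ra −19.5 kb: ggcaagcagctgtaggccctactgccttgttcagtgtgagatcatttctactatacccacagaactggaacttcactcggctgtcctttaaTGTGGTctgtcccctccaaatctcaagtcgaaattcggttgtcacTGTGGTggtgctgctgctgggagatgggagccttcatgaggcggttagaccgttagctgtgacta
Il2ra +10.8 kb: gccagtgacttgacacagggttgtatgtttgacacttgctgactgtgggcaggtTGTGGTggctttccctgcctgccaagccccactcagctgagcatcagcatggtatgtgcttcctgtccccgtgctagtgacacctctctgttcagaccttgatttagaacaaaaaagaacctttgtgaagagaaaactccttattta

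The Il7r promoter held 1 STAT and 1 RUNX match, the Il2rg promoter 1 RUNX and 1 ETS match, and the Il15ra promoter at the second TSS 1 AP-1 match. The promoter at the first Il15ra TSS, not shown, held 1 ETS match and no AP-1 match. The Il2ra promoter held none of the 4. Over all 32851 promoter entries the shares with a match were 8.3% for STAT, 16.8% for RUNX, 7.81% for AP-1 and 14.9% for ETS. All 6 LSD1 summit windows of Il2ra away from TSSs held a RUNX match, and 2 of them, at −25.7 kb and +8.94 kb, also held AP-1. The windows at −34.1 kb and −4.68 kb, not shown, had nearly the same letters around the RUNX match. Their sites were 78.1% and 81.2% repeat as marked in the reference. At +8.94 kb, also not shown, 2 RUNX and 2 AP-1 matches lay in 2 copies of 1 stretch of letters. Of the 5 at Il7r, 1 held RUNX and 2 held STAT. The LSD1 sites of Il2rb were not scored for matches. Among all 21252 Veh LSD1 summits, RUNX was matched in 22.9% (16.7% of GSK summits), AP-1 in 9.11%, STAT in 6.17% and ETS in 9.5%. Matches to different motifs can overlap, and a match is a description of the letters only.

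At the promoters, H3K4me3 was the 1 mark that all 5 receptor genes carried in both treatments, and H3K27ac was the mark whose listing differed most. Counted over 6 antibodies, 16 of 30 possible promoter peaks were present in Veh and 13 of 30 in GSK. H3K4me3 was found at 5 of 5 genes in each treatment, against 50.2% of all genes in Veh and 51.3% in GSK. LSD1 was found at 3 genes in each treatment (Il2ra, Il2rb and Il15ra), against 36.5% and 41.8% of all genes. Pol II was found at 3 genes in Veh and 2 in GSK (all genes, 29.4% and 25%). H3K27ac was found at 3 genes in Veh and 0 in GSK (all genes, 20.6% and 8.61%). H3K4me1 was at 1 gene in Veh and 2 in GSK (30.4% and 36.9% of all genes), and H3K4me2 at Il15ra alone in both (39.2% and 28.3%). With 5 genes, counts of this kind are a description of the genes and not a contrast with the rest of the genome.

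**Figure D1:**
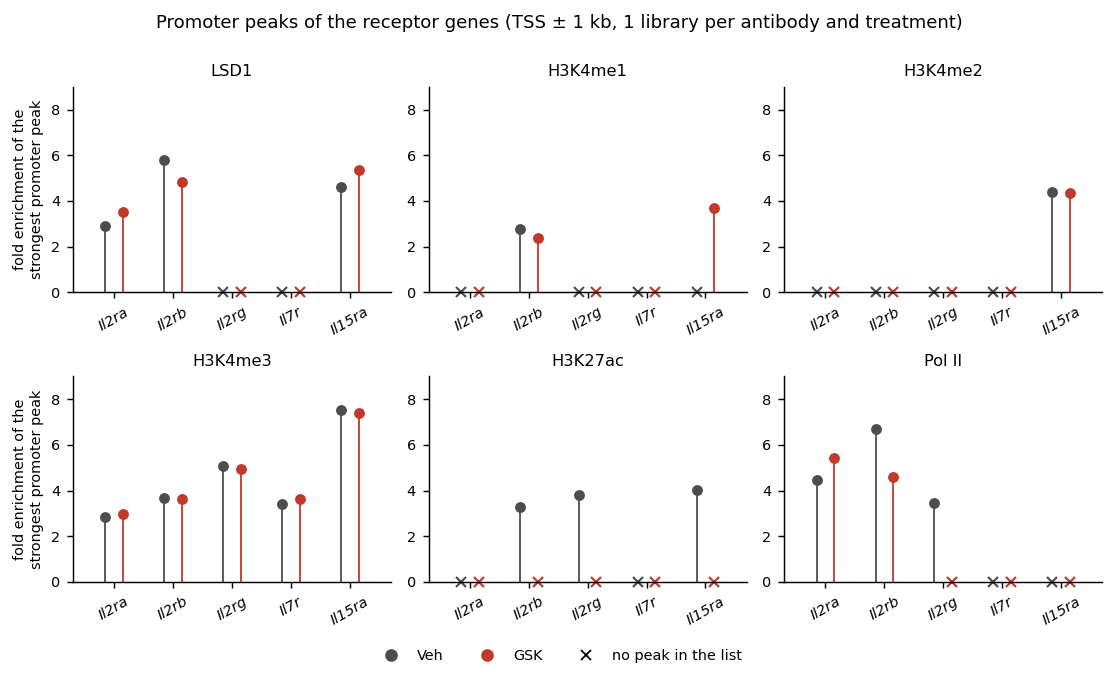
Fold enrichment of the strongest peak within 1 kb of a TSS of each receptor gene (x axis, genes; y axis, fold enrichment over background), in 1 panel per antibody, with Veh in grey, GSK in red and a cross at 0 where the list had no peak. H3K4me3 lies between 2.86 and 7.53 at all 5 genes with little distance between treatments, while the 3 H3K27ac peaks are in Veh only.

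Il2ra (chr2:11642792-11693194, plus strand) encodes the IL-2 receptor alpha chain, and its promoter had the lowest H3K4me3 fold of the 5 genes and the lowest LSD1 fold of the 3 with a peak, together with a strong Pol II peak. The H3K4me3 peak was 3073 bp wide in Veh and 2973 bp in GSK, with folds of 2.86 and 2.98, at percentiles 2.07 and 2.69 of their lists. The fold was near the bottom of both lists, although −log10 p was 34.2 and 35.2 over these wide peaks. The Pol II peak over the TSS had a fold of 4.45 in Veh and 5.43 in GSK, with −log10 p of 13.9 and 20.0. Its percentile went from 63.2 to 89.6, a difference of 26.4 points that stood at percentile 93.5 among the 5759 genes with a Pol II promoter peak in both lists. GSK alone listed a second, weaker Pol II peak 1.0 kb into the gene, with a fold of 2.69. The LSD1 peak had a fold of 2.88 in Veh and 3.52 in GSK and ranked 17822 and 13128 in its lists. No H3K4me1, H3K4me2 or H3K27ac peak lay at the Il2ra promoter.

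Il2rb (chr15:78480548-78495066, minus strand), the signalling chain shared by IL-2 and IL-15, had the strongest LSD1 promoter peak of the 5 genes in Veh. Its fold was 5.80 in Veh and 4.84 in GSK, with −log10 p of 16.8 and 10.8, and its percentile went from 84.2 to 60.2. The difference of −24.0 points lay at percentile 9.88 of the 8348 genes with LSD1 in both lists, whose median difference was 6.22 points. Pol II had a fold of 6.68 in Veh and 4.58 in GSK, with percentiles of 88.9 and 81.0. H3K4me3 was 2516 bp wide in Veh and 2513 bp in GSK, with folds of 3.68 and 3.65. H3K4me1 reached the promoter from upstream in both lists, with folds of 2.79 and 2.36. H3K27ac was in Veh only, with a fold of 3.27.

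Il2rg (chrX:101264385-101268255, minus strand), the common gamma chain needed by all 3 cytokines, had no LSD1 peak at its own promoter in either treatment. Its H3K4me3 peak had a fold of 5.09 in Veh and 4.96 in GSK over 1600 and 1607 bp. Veh alone listed H3K27ac, with a fold of 3.80, and a weak Pol II peak with a fold of 3.44 and −log10 p of 4.92, at rank 9582. The LSD1 peaks of this window were at the promoters of neighbouring genes and in GSK only. They were at Med12, −5.90 kb from the Il2rg TSS with a fold of 7.09, and at Snx12, 45.9 kb on the other side with a fold of 5.36.

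Il7r (chr15:9506159-9529876, minus strand), the IL-7 receptor alpha chain, carried H3K4me3 at its promoter and none of the other 5 antibodies' peaks. The H3K4me3 fold was 3.42 in Veh and 3.64 in GSK, at percentiles 4.80 and 7.17. A Pol II peak in Veh had its summit 1.41 kb into the gene, just outside the promoter window, with a fold of 3.03 and −log10 p of 4.19, and GSK listed none there. No H3K27ac peak lay anywhere in the Il7r window in either treatment.

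Il15ra (chr2:11705293-11733985, plus strand), whose first TSS is 62.5 kb from that of Il2ra, encodes the IL-15 receptor alpha chain. Its H3K4me3 peak was narrower and stronger than that of Il2ra, 1190 bp with a fold of 7.53 in Veh and 1167 bp with 7.40 in GSK, at percentiles 80.5 and 78.1. LSD1 had folds of 4.60 and 5.35, and H3K4me2 had folds of 4.41 and 4.35. H3K27ac was in Veh only (fold 4.03) and H3K4me1 in GSK only (fold 3.67). No Pol II peak was listed at Il15ra in either treatment, whereas Il2ra and Il2rb had one in both.

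The 3 H3K27ac promoter peaks in Veh ranked 3121 (Il2rb), 3744 (Il2rg) and 4764 (Il15ra) in a list of 7410. The GSK list held 2751 peaks, and with the Veh list shortened to the same number, H3K27ac was at 0 of the 5 promoters in both treatments. List length moved with this difference, and its part in it was not tested.

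**Figure D2:**
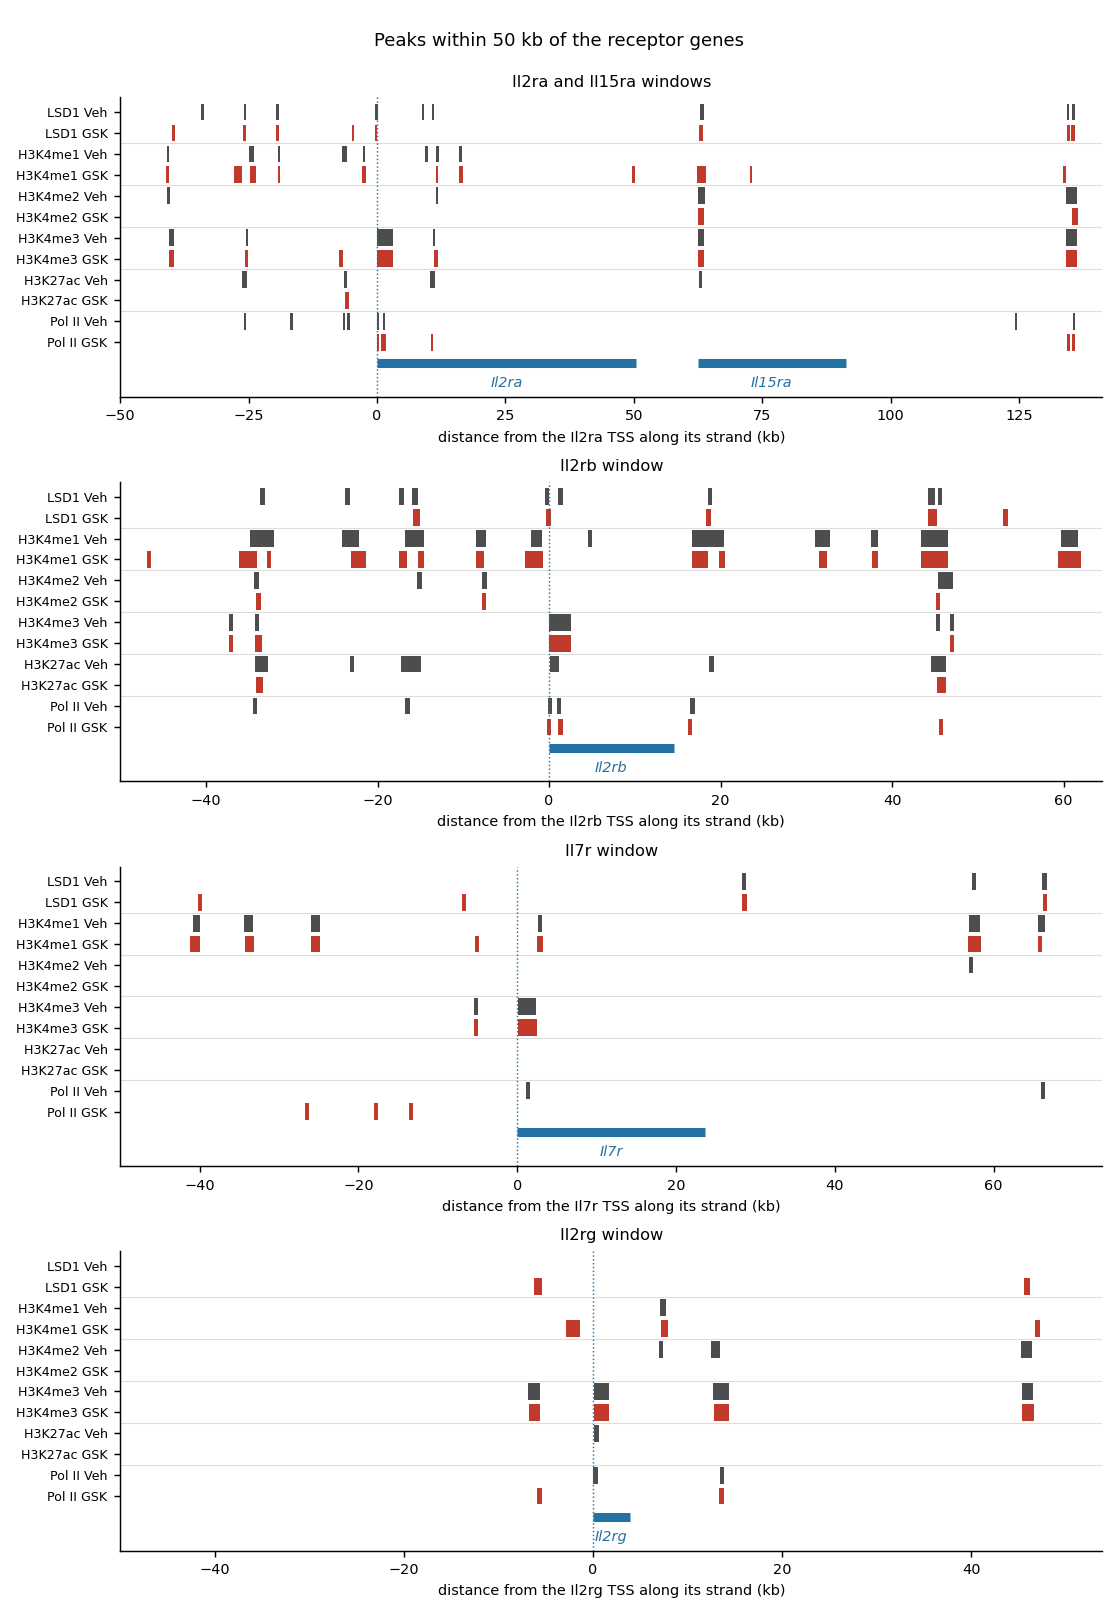
Peaks of the 12 lists (rows, Veh in grey and GSK in red) by distance in kb from the TSS along the gene's strand, for the joined Il2ra and Il15ra windows and those of Il2rb, Il7r and Il2rg, with gene bodies in blue and every peak drawn at least 0.5 kb wide. LSD1 and H3K4me1 peaks are spread on both sides of Il2ra and Il2rb, while the Il2rg window has no LSD1 peak in Veh and the Il7r window has no H3K27ac peak.

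Peaks of both treatments were then joined into sites where they overlapped by at least 1 bp. LSD1 had 28 sites in the windows, 12 in both treatments, 9 in Veh only and 7 in GSK only. Over all LSD1 sites the shares were 38.8% in both, 32.7% in Veh only and 28.5% in GSK only. Away from TSSs there were 19 LSD1 sites, 7 in both, 8 in Veh only and 4 in GSK only, against 23.8%, 45.1% and 31% of all such sites. Veh listed 15 of them, and GSK shared 7 of these, or 46.7% (Wilson 95% interval 24.8% to 69.9%, counting error only), and the share over all sites away from TSSs was 34.5%. Of these 7, 6 had a higher −log10 p in Veh than in GSK, against 62.2% of all LSD1 sites away from TSSs that both lists held. These 19 sites belonged to Il2rb (8), Il2ra (6) and Il7r (5), and Il2rg and Il15ra had none. In Veh the Il2rb window held 7.86 LSD1 peaks per 100 kb, at percentile 99.5 of all gene windows, and the Il2ra window 4.65, at percentile 92.0, where the median was 1.57. In GSK the values were 4.37 (percentile 89.7) and 3.99 (percentile 87.7). The density of the Il2rb window was not particular to LSD1. Its Veh percentiles were 97.6 for H3K4me1, 83.9 for H3K4me2, 89.5 for H3K4me3, 99.0 for H3K27ac and 95.5 for Pol II. The Il2rg window held 0 LSD1 peaks in Veh, at percentile 12.2.

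At Il2ra, the site at −25.7 kb had the strongest LSD1 peak, with −log10 p of 17.2 in Veh and 7.54 in GSK and folds of 5.96 and 4.19. Within 1 kb of it, H3K4me1 and H3K4me3 were listed in both treatments and H3K27ac and Pol II in Veh only. The site at −19.5 kb had nearly the same fold in both treatments, 4.94, with −log10 p of 12.7 in Veh and 10.6 in GSK, and had H3K4me1 alone beside it. The intronic site at +10.8 kb had an LSD1 peak in Veh only, with a fold of 4.32 and −log10 p of 11.1. Beside it, H3K4me2 and H3K27ac were in Veh only, H3K4me1 and H3K4me3 in both, and Pol II in GSK only, with a fold of 3.27. Weaker LSD1 peaks lay at −34.1 kb and +8.94 kb in Veh only (−log10 p 5.90 and 4.54) and at −4.68 kb in GSK only (−log10 p 6.73).

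At Il2rb, the strongest site lay between genes at −15.8 kb, with −log10 p of 18.7 in Veh and 8.97 in GSK and folds of 5.77 and 4.18. H3K4me1 lay beside it in both treatments, and H3K4me2, H3K27ac and Pol II in Veh only. The site at +44.4 kb, in an intron of Tmprss6, went the other way, with −log10 p of 9.93 in Veh and 16.1 in GSK and folds of 4.0 and 5.55. A second intronic site of Tmprss6 at +45.7 kb was in Veh only, with −log10 p of 14.1. The GSK peak of the +44.4 kb site lay within 1 kb of it, and where peaks within 1 kb were counted as shared, LSD1 sites in Veh only numbered 6 in place of 9. Tmprss6 encodes a protease of iron metabolism in the liver, and which gene these sites belong to was not measured. The other 5 Il2rb sites had lower −log10 p than these 3. At Il7r, the strongest site lay at +28.5 kb, beyond the end of the gene, with folds of 7.53 in Veh and 6.97 in GSK, at percentiles 94.7 and 91.4. No peak of any other antibody lay within 1 kb of it. The site at +66.3 kb, in an intron of Capsl, had folds of 4.89 and 3.26, with H3K4me1 in both treatments and Pol II in Veh beside it. The site at +57.5 kb was in Veh only (−log10 p 5.96), with H3K4me1 in both and H3K4me2 in Veh beside it. Sites at −6.70 kb and −40.0 kb were in GSK only, with −log10 p of 7.49 and 3.78.

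Several LSD1 sites away from TSSs lay in repeat sequence. The reference marks repeats in lower case, and the bases of the Il7r sites at +28.5 kb and −6.70 kb were 100% repeat by that mark. Of the 4 sites in GSK only, 3 had more than 50% of their bases marked as repeat, against 1 of 8 in Veh only and 1 of 7 in both. Over all LSD1 sites away from TSSs the shares were 29.7% of those in GSK only, 22.9% of those in Veh only and 11.5% of those in both. At TSSs the shares were 1.69%, 4.81% and 0.59%, and the 3 GSK-only sites at TSSs in the windows had at most 14.3% repeat. The sites at −25.7 kb and +10.8 kb of Il2ra were 0% and 4.96% repeat, and the Il2rb site at −15.8 kb was 2.22%. The part of repeats in the listing was not tested.

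**Figure D3:**
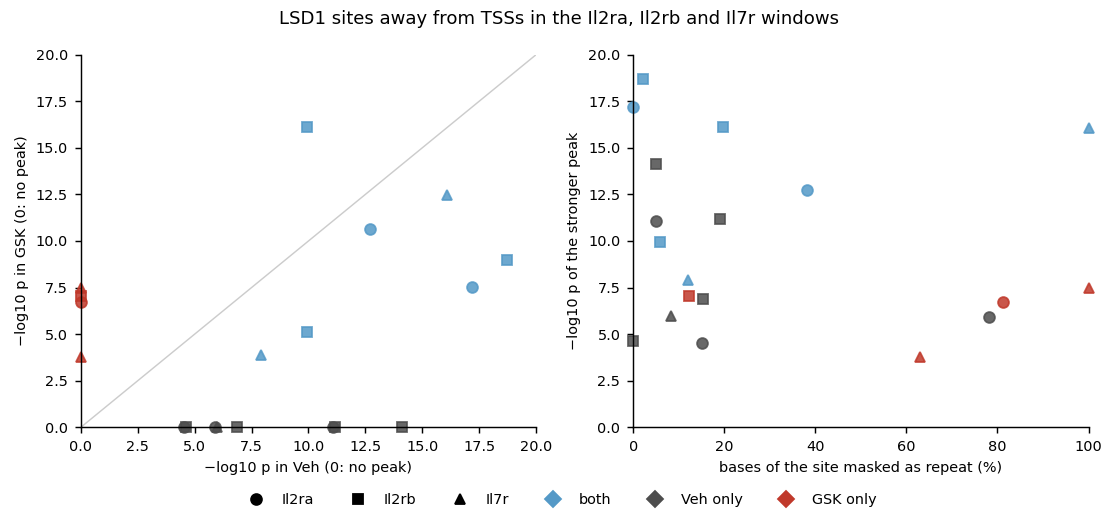
The 19 LSD1 sites away from TSSs of the Il2ra (circles), Il2rb (squares) and Il7r (triangles) windows, coloured by the treatments that listed them: at left −log10 p in GSK against Veh, with 0 where a list had no peak and a grey line of equality, and at right −log10 p of the stronger peak against the share of the site's bases marked as repeat, in percent. Of the 7 sites in both treatments, 6 lie below the line, and 3 of the 4 GSK-only sites lie beyond 50% repeat.

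H3K4me1 sites were mostly present in both treatments. Of 35 sites, 23 were in both, 3 in Veh only and 9 in GSK only, against 67.9%, 9.47% and 22.6% of all H3K4me1 sites. The GSK list was the longer one, with 40272 peaks against 34387, and with lists of equal length the sites numbered 21, 5 and 6. The strongest by −log10 p at Il2rb covered these LSD1 sites in Tmprss6, with −log10 p of 19.0 in Veh and 23.5 in GSK, at ranks 491 and 283. At Il2ra the strongest lay at +11.7 kb in the gene, within 1 kb of the LSD1 site at +10.8 kb, with −log10 p of 18.9 and 17.4 and folds of 3.03 and 2.89. It ranked 512 of 34387 peaks in Veh by −log10 p, while its fold was at percentile 16.3. The next at Il2ra lay at −19.1 kb, with −log10 p of 11.6 in Veh and 7.82 in GSK. At Il7r the strongest lay upstream at −33.8 kb (−log10 p 11.5 and 14.5) and −40.4 kb (12.9 and 6.72), and a further site was inside the gene at +2.92 kb in both. At Il15ra an intronic site at +10.3 kb was in GSK only, with a fold of 4.95. The site shared by both treatments in the Il15ra window lay in an Il2ra intron, +16.2 kb from the Il2ra TSS in Veh. At Il2rg the strongest lay at +7.41 kb over an exon of Foxo4 in both treatments. The 12 sites found in 1 treatment only had −log10 p of at most 8.81 in Veh and 8.49 in GSK.

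H3K4me2 had 12 sites, 5 in both, 7 in Veh only and 0 in GSK only, against 51.8%, 41.9% and 6.27% of all sites. The GSK list was the shorter one, with 9437 peaks against 15219, and with lists of equal length the sites numbered 4, 4 and 1. Away from promoters, those in Veh only were next to the LSD1 sites of Il2ra at +10.8 kb, Il2rb at −15.8 kb and Il7r at +57.5 kb and, at Il2rg, at +7.20 kb. H3K4me3 had 18 sites, 16 in both, 1 in Veh only and 1 in GSK only, against 88.8%, 2.43% and 8.74% of all sites. Away from promoters its strongest in the windows lay at +47.0 kb of Il2rb, in a Tmprss6 intron, with folds of 6.40 in Veh and 7.49 in GSK.

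H3K27ac had 11 sites, 3 in both, 8 in Veh only and 0 in GSK only, against 34.6%, 63.6% and 1.82% of all sites. The 3 in both were at Il2rb (+45.4 kb in a Tmprss6 intron, and the C1qtnf6 promoter) and at −5.91 kb of Il2ra. The strongest in Veh only lay over the LSD1 site of Il2rb at −16.1 kb, with −log10 p of 12.3 and a fold of 3.23. It ranked 1780 and was the 1 Veh-only site left when the Veh list was shortened to 2751 peaks. At Il2ra the strongest in Veh only lay at +10.7 kb over the intronic LSD1 site, with −log10 p of 10.1 at rank 3077. Of the 8 Veh-only peaks, 7 had a fold below 4.0, the 10th percentile of the GSK list.

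Pol II had 26 sites, 6 in both, 11 in Veh only and 9 in GSK only, against 24.2%, 38.3% and 37.4% of all sites. Away from TSSs, Il2ra and Il2rb each had 1 Pol II site in both treatments, and both lay early in the gene. At Il2ra it was at +1.27 kb in Veh, with folds of 2.79 in Veh and 2.56 in GSK, and at Il2rb at +1.17 kb in Veh, with folds of 4.56 and 3.44. The Pol II sites in 1 treatment only had −log10 p of at most 6.25 in Veh and 6.18 in GSK.

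**Figure D4:**
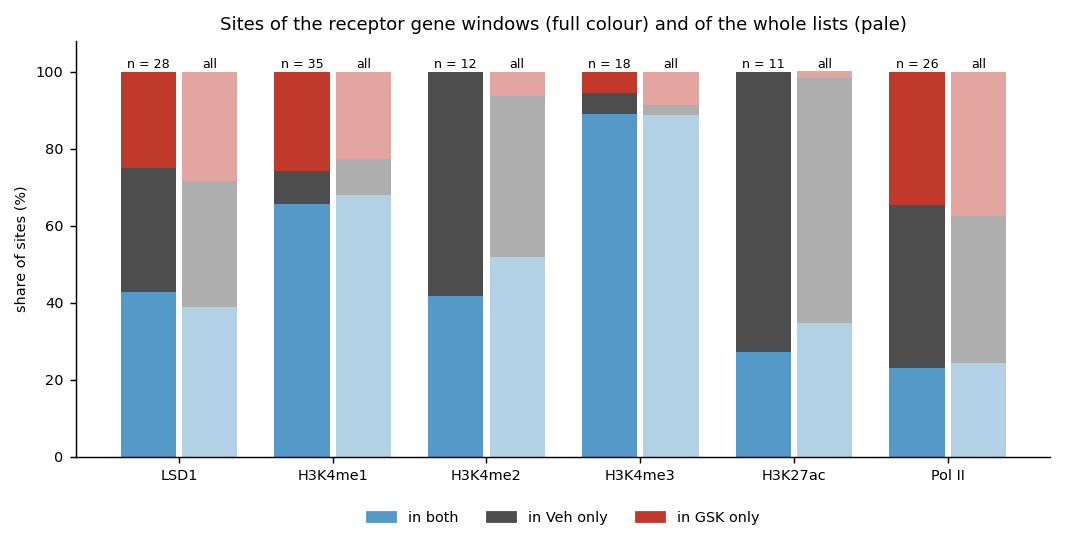
Share of sites (y axis, percent) listed in both treatments, Veh only or GSK only, for each antibody, with the receptor gene windows in full colour (number of sites above the bar) and the whole lists in pale colour. In both sets of bars H3K4me3 is mostly in both treatments and H3K27ac mostly in Veh only. The largest share of H3K4me2 is Veh only in the windows and both in the whole lists. With lists of equal length the windows held 4 H3K4me2 sites in both treatments and 4 in Veh only, and whole-list shares were not computed for that setting.

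The window limit of 50 kb cut through regions with peaks. Just outside it were an H3K4me1 peak of Veh 50.5 kb from Il2rg (fold 4.74), an H3K4me1 peak of Veh 50.6 kb from Il7r (2.42), a Pol II peak of GSK 50.9 kb from Il2ra (3.49) and an H3K4me3 peak of Veh 51.1 kb from Il2rb (8.16). A Veh H3K4me1 peak 50.6 kb from Il15ra (3.03) was outside its window but inside that of Il2ra. Nearest to the limit on the inside were H3K4me1 peaks of GSK 46.4 kb from Il2rb (3.43), and of Veh 45.9 kb from Il15ra (2.16) and 45.2 kb from Il2rb (2.48).

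Of 22 other genes of the pathway, covering the ligands, related receptors, the JAK and STAT proteins and targets, 20 had promoter H3K4me3 in both treatments (50.2% and 51.3% of all genes in Veh and GSK). LSD1 was at 11 promoters in Veh and 15 in GSK, with 9 in both, 2 in Veh only (Il7 and Myc) and 6 in GSK only (Il15, Jak3, Cish, Socs1, Klf2 and Pim1), against 36.5% and 41.8% of all genes. H3K27ac was at 13 in Veh and 6 in GSK (all genes, 20.6% and 8.61%), and Pol II at 15 and 14 (29.4% and 25%). H3K4me1 was at 11 and 12 (30.4% and 36.9%), and H3K4me2 at 6 and 5 (39.2% and 28.3%). LSD1 numbers were thus higher and H3K27ac numbers lower in GSK both in this list and over all genes. Cish and Socs1 encode feedback inhibitors of this signalling, and Socs1 LSD1 in GSK had a fold percentile of 1.93. Jak1, the kinase bound by the beta chain and by CD127, had LSD1, H3K27ac and Pol II in both, with Pol II percentiles of 93.3 and 95.6. Jak3, bound by the common gamma chain, had Pol II percentiles of 62.7 in Veh and 13.9 in GSK. Stat5a and Stat5b had LSD1 in both treatments and Pol II in Veh only.

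The presence or absence of a promoter peak in the 12 lists gave each receptor gene a pattern, which was compared with the 22 pathway genes by the number of lists that differed. Il2ra differed from Foxo1 and Socs3 in 1 list and from Bcl2 in 2, and 79 genes of the genome (0.303%) had exactly its pattern. Il2rb differed from Bcl2 and Stat3 in 1 list and from Jak3 in 2. Il2rg differed from Cish, Crlf2 and Myc in 2 lists, and Il7r from Crlf2 and Il2 in 2 and from Foxo1 in 3. Il15ra was the least matched, 2 lists from Il7 and 3 from Il15 and Socs2, and 13 genes shared its pattern. Up to 3 genes were named for each receptor gene, and ties were cut by alphabet. Cish, Jak1, Myc and Socs1 were as near to Il2ra as Bcl2. Mcl1, Socs2 and Socs3 were as near to Il2rb as Jak3. Socs1 was as near to Il2rg as the genes named, and Il4ra as near to Il7r as Foxo1.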

How the data were processed

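Peak lists of 12 ChIP-seq libraries from mouse CD8+ T cells were used, 1 per antibody and treatment. Before deposit, the authors aligned reads to mm10 with Bowtie2, kept unique alignments, removed duplicates and called peaks with MACS2, with input as control, narrow for LSD1 and Pol II and broad for the histone marks. They also state a normalization of libraries to equal read numbers, by random picking, for comparing signals. Whether the deposited peaks were called on those reads is not stated. Per the file headers and values, the deposited columns held a fold enrichment (a ratio), −log10 p and −log10 q, a whole-number score and a summit offset, of which the score was not used. The histone lists began just above a −log10 q of 3 (3.01 to 3.03), and the LSD1 and Pol II lists just above a −log10 p of 3 (3.00 to 3.01), so histone lists were held to a stricter level. Columns of samples not used numbered 0. The lists hold no read numbers, and the read pairs that the study states per library were not used to scale them, so no floor was computed.

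Peaks were overlapped with 31554 TSSs of 26089 genes (curated RefSeq, GRCm38.p6, Y left out) in Python 3.11.15 with pandas 2.3.3 and NumPy 2.4.6, with an overlap of at least 1 bp. Every peak ended within the chromosomes of that reference. A gene's promoter peak was that with the highest −log10 p within 1 kb of any of its TSSs. Overlap counting was tested on simulated peaks. Wilson intervals (statsmodels 0.14.6) cover counting error only. Named were the 5 genes with their promoter peaks, and away from promoters all LSD1 sites of a gene with up to 6, otherwise the 3 with the highest −log10 p. Of the other antibodies, the 2 strongest sites per gene and the strongest in 1 treatment were named, with further sites added for description after their values were seen. Patterns were set beside a list of 22 pathway genes. Members, lists and rules were chosen with earlier results of these data known. Stricter peaks, other windows, other rules for shared sites and lists of equal length were tried.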

Additional observations from a re-analysis of the deposited data

How the results depend on the processing

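Promoter peak totals (16 in Veh, 13 in GSK) stayed within 1.5 times under a TSS window of 500 bp or 2.5 kb, −log10 q of at least 5 and lists of equal length. By antibody they moved more. H3K27ac promoter peaks in Veh went from 3 to 0 with equal lists, LSD1 in Veh from 3 to 1 with −log10 q of at least 5, and H3K4me1 in GSK from 2 to 5 with the 2.5 kb window. Site counts are given as both, Veh only and GSK only, and 33 of 54 alternative totals stayed within 1.5 times. With flanks of 20 kb, LSD1 sites numbered 7, 4 and 3, H3K4me1 sites in both 11 and in GSK only 5, and the other 4 antibodies together 17 and 17 (both and Veh only). With flanks of 100 kb, LSD1 in GSK only reached 11, H3K4me1 41, 6 and 19, and the other antibodies in both 47. Both changes follow from the window's size. With −log10 q of at least 5, which leaves fewer peaks, LSD1 numbered 6, 5 and 4, H3K4me1 15 in both and 5 in GSK only, and the other antibodies 19, 15 and 0. These pooled totals differed by antibody. H3K4me2 sites in both went from 5 to 0, and Pol II sites from 11 to 1 in Veh only and from 9 to 0 in GSK only. H3K27ac sites in Veh only stayed at 8, and H3K4me3 sites in both went from 16 to 15. With equal lists, H3K4me1 in Veh only was 5, and H3K4me2 sites went from 5, 7 and 0 to 4, 4 and 1. Joining peaks within 1 kb, or asking for an overlap of at least 50% of the shorter peak, moved none of the totals by over 1.5 times. No paired analysis was possible because each antibody and treatment had 1 library. Lists were not scaled to read numbers, and a peak absent from a list may have lain just under its threshold.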

Other observations

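The windows also held promoters of neighbouring genes. Rbm17, −39.6 kb from the Il2ra TSS, had an LSD1 promoter peak in GSK only (fold 6.0), with H3K4me3 folds of 8.22 in Veh and 8.83 in GSK. C1qtnf6, −34.6 kb from the Il2rb TSS, had LSD1 (fold 3.60) and Pol II (fold 3.14) in Veh only and H3K27ac in both treatments, with folds of 3.79 in Veh and 4.89 in GSK. Foxo4, 13.7 kb from the Il2rg TSS, had the strongest Pol II peak of that window, with folds of 7.12 in Veh and 5.19 in GSK. These are values of single libraries.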
